A study of Mus musculus with 4 samples.

Results

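Chemokines and interleukins, together with their receptors, were followed in RNA from mouse embryonic fibroblasts (MEFs) with and without *Mbd4*. The genes were chosen by name from the deposited gene table, as those called Ccl, Ccr, Cxcl, Cxcr or Cx3c and a number, or Il and a number with or without a receptor ending. This gave 86 rows of 23537, with 85 distinct names because *Ccl25* stands under 2 overlapping identifiers. By their names 24 were chemokine ligands, 10 chemokine receptors, 20 interleukin ligands and 32 interleukin receptors. MBD4 is a DNA glycosylase that removes thymine or uracil paired with guanine, the products of deamination at CpG sites. Primary MEFs came from C57BL/6 embryos at day 12.5 post coitum, and were collected while subconfluent. The 2 KO samples were *Mbd4*-/- and the 2 WT samples *Mbd4*+/+, and the question was how the absence of MBD4 alters gene expression. The study calls the samples of a genotype independent without naming embryos or cultures, so the p-values below reflect only how far these samples spread, whether for biological or technical reasons.

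Chemokines are small secreted proteins that guide migrating cells along gradients by way of receptors that couple to G proteins, and fibroblasts release several of them that attract leukocytes. Interleukins act through receptors built from several chains. Receptors of the interleukin-1 family signal through MyD88 and IRAK kinases to NF-kB, and most others signal through JAK kinases and STAT factors. The chain gp130, encoded by *Il6st*, is shared by the receptors for interleukin-6, interleukin-11, LIF and oncostatin M, and the common gamma chain, encoded by *Il2rg*, by those for interleukins 2, 4, 7 and 15.

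The upstream sequences of 5 genes on which the results turn are shown because the deaminated bases that MBD4 repairs lie at CpG sites. The starts shown range from 0 to 27 CpGs. Each is the 250 bases before a RefSeq transcript start, read from mm9 on the strand of the gene, with every CpG in capitals. *Il17rb* (chr14:30822083-30822332, minus strand) has 27 CpGs, *Il13ra1* (chrX:33651853-33652102, plus strand) 21, *Cxcl12* (chr6:117118303-117118552, plus strand) 14, *Il18* (chr9:50362555-50362804, plus strand) 1 and the first start of *Il1rl1* (chr1:40486165-40486414, plus strand) 0.
Il17rb: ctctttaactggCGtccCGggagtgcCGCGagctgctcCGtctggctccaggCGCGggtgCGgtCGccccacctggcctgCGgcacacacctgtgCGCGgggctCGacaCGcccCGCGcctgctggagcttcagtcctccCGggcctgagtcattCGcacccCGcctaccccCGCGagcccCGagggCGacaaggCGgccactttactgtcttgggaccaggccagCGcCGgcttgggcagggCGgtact
Il13ra1: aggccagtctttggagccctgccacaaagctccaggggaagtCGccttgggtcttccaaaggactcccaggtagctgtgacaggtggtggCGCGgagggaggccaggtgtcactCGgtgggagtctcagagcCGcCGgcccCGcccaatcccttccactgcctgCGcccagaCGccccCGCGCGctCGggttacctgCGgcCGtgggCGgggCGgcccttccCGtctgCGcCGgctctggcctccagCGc
Cxcl12: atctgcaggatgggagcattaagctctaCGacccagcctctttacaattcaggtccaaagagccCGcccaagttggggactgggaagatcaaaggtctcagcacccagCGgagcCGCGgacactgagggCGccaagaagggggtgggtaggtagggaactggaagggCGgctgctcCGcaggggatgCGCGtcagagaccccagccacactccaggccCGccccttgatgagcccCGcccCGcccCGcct
Il18: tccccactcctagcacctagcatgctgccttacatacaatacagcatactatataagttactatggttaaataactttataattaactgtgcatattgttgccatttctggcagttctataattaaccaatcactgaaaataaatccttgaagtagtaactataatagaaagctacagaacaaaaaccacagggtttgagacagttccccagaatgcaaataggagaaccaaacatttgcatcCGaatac
Il1rl1: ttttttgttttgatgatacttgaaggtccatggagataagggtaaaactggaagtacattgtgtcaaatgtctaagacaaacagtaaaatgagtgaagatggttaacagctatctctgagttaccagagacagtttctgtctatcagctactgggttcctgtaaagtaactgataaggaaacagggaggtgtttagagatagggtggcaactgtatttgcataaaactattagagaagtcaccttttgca
Of these genes *Il17rb*, *Cxcl12* and *Il1rl1* were lower and *Il13ra1* and *Il18* higher in KO, so that both directions occur with many and with few CpGs. The RefSeq start of *Il18* lies 20573 bases from the nearest start in the annotation used for exons, so its sequence belongs to another first exon. *Il1rl1* has another RefSeq start that is not shown, with 3 CpGs in the 250 bases before it (chr1:40496224-40496473, plus strand). The CpG-richest annotated start of *Il1rl1* has 4. Which start was used in these cells was not tested.

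The libraries held 45223089 and 39108275 counts in KO and 47567835 and 42796997 in WT, of which the 86 genes took 0.240% to 0.274%. *Mbd4* had 373 and 302 counts in KO and 663 and 630 in WT, and its level fell by 0.99 on the log2 scale (SE 0.11, adjusted p = 2.8e-06, edgeR). Levels are given as CPM, a gene's counts per 1000000 counts of the library after TMM scaling, and a gene is called at a Benjamini-Hochberg adjusted p of 0.05 from edgeR's quasi-likelihood test over all 15538 genes that passed a filter on low counts. The fibroblast markers summed to 12780 and 13910 CPM in KO and 23600 and 21310 CPM in WT. Of these 12 markers 8 fell and 1 rose, and the matrix proteoglycan *Dcn* was down to 5 and 7 counts in KO from 1349 and 1123 in WT. Of 16 leukocyte markers 10 were in the table, 4 of them with at most 10 counts in every library, and they summed to 8.58 and 8.27 CPM in KO and 7.77 and 6.71 CPM in WT. Within them the pan-leukocyte phosphatase *Ptprc* had 0 and 2 counts in KO against 40 and 21 in WT, while the macrophage receptor *Csf1r* had 196 and 177 against 61 and 47. The exons of *Csf1r* overlap those of *Hmgxb3* on the opposite strand, so its counts are uncertain. Epithelial markers (9 of 10 in the table, 5 with at most 10 counts) summed to 3.68 and 3.45 CPM in KO and 28.3 and 28.5 in WT, with *Krt19* falling to 12 and 14 counts in KO from 1229 and 1114 in WT and *Cdh1* rising to 142 and 107 from 10 and 9, and endothelial markers (8 of 10) to 7.66 and 8.05 against 6.54 and 5.54. In bulk samples fewer cells of a type and less RNA per cell cannot be told apart, and the part of these markers in the results below was not tested.

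Of the 86 genes 52 were tested, and the other 34 had at most 13 counts in any library. Most of the tested genes differed between the genotypes, in both directions. In all 39 of the 52 (75.0%) were called, 18 higher (34.6%) and 21 lower (40.4%) in KO, beside 66.8% of all genes tested, with 34.3% higher and 32.5% lower. The study set limits of 0.01 on P and 2 on the size of the log2 fold change. With these, applied here to the adjusted p, 8 were higher and 9 lower, or 32.7% of those tested, beside 8.94% of all genes (5.79% higher and 3.15% lower). Of the tested genes 13 had under 10 counts in at least 1 library, and such a gene may pass the filter only through the genotype where it is high. With the 39 genes that had 10 counts in every library the share was 23.1%, beside 4.97% of all such genes. The median absolute log2 fold change was 1.24 over the tested genes and 0.47 over all genes, while the median signed change was 0.03 and 0.02. The KO and WT libraries did not overlap in 45 of the 52, beside 82.8% of all genes tested. Exons of 19 of the 86 genes overlap another annotated gene, so their counts are uncertain, among them the called genes *Cxcl10*, *Cxcl16*, *Ccl27a*, *Il7*, *Il16*, *Il34*, *Il1rap*, *Il2rg*, *Il10rb* and *Il11ra1*.

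**Figure D1:**
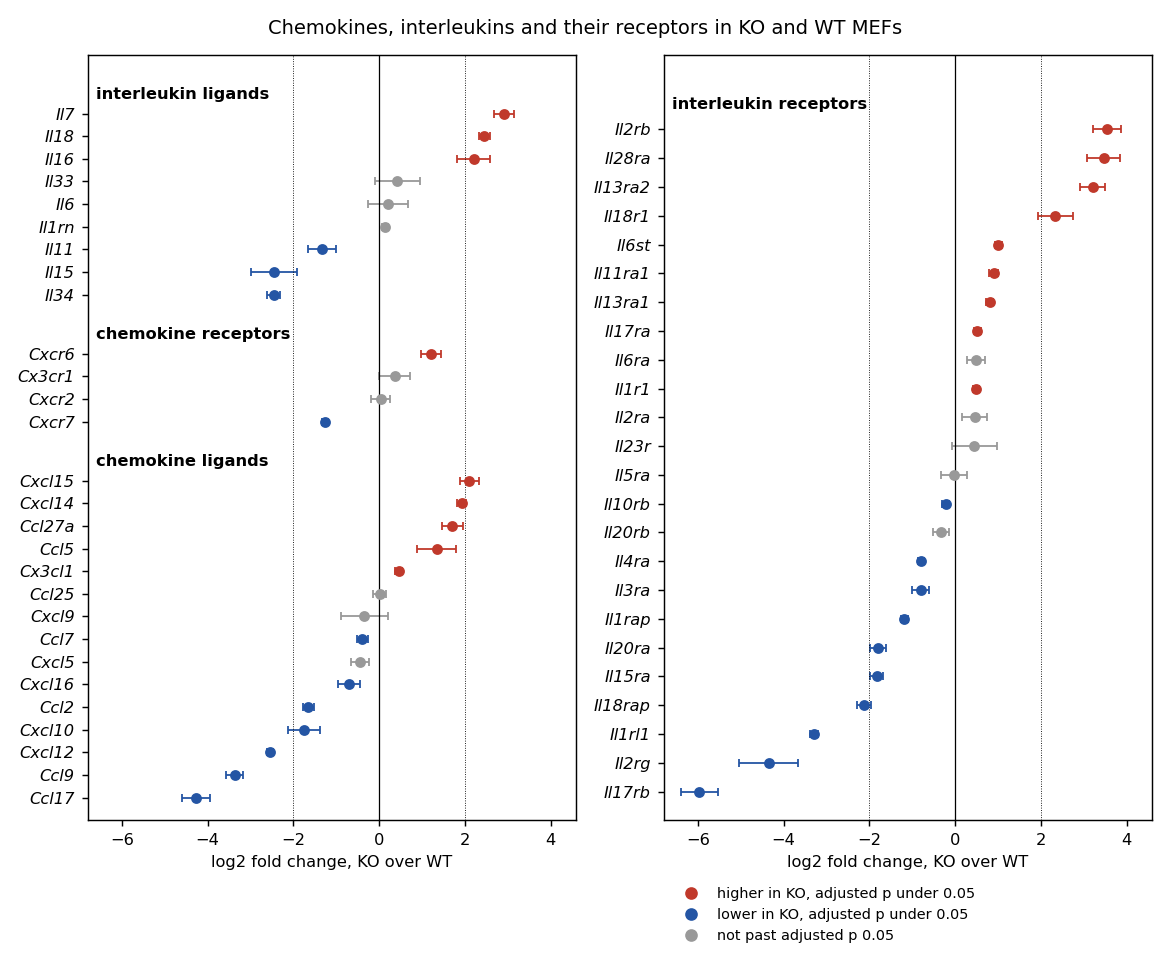
Log2 fold change, KO over WT, of the 52 tested chemokine and interleukin genes, grouped by role. Points are edgeR estimates with bars of 1 SE, coloured by the call at an adjusted p of 0.05, and each role holds genes on both sides of 0, from *Il17rb* at -5.97 to *Il2rb* at 3.55.

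Among the 15 tested chemokine ligands 7 were lower in KO, 5 higher and 3 not called, with a median log2 fold change of -0.39. That is a share called of 80%, beside 66.8% of all genes tested. Per length of exon the ligand with the highest level in WT was *Cxcl12*, which attracts haematopoietic and germ cells and binds CXCR4 and CXCR7. It stood at 102 and 108 CPM in KO and at 572 and 656 CPM in WT. Both KO libraries were far below both WT libraries, and the gene fell 5.83-fold (log2 fold change -2.54, SE 0.07, adjusted p = 7.2e-12). *Ccl2*, the main monocyte attractant of fibroblasts, stood at 7.26 and 5.75 CPM in KO and at 22.2 and 18.6 CPM in WT and fell 3.13-fold (log2 fold change -1.65, SE 0.13, adjusted p = 1.1e-07). Its neighbour *Ccl7*, a ligand of the same receptor, was lower by less, with 7.30 and 7.08 CPM in KO and 8.80 and 10.1 CPM in WT (log2 fold change -0.39, SE 0.13, adjusted p = 0.014). That call was lost when either KO library was left out, at adjusted p of 0.073 and 0.096, and with scaling to library totals, at 0.11.

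The CC ligands *Ccl17* and *Ccl9* had the largest falls of the chemokines. *Ccl17*, which attracts T cells through CCR4, stood at 0.126 and 0.146 CPM in KO and at 2.70 and 2.61 CPM in WT, a fall of 4.27 on the log2 scale (SE 0.32, adjusted p = 6.1e-08). *Ccl9*, a ligand of CCR1 on myeloid cells, stood at 0.757 and 1.09 CPM in KO and at 9.98 and 9.01 CPM in WT, a fall of 3.37 (SE 0.19, adjusted p = 4.1e-09). For both genes the 2 KO libraries lay below every WT library. *Cxcl10*, induced by interferon and a ligand of CXCR3, stood at 0.400 and 0.291 CPM in KO and at 1.5 and 0.854 CPM in WT (log2 fold change -1.75, SE 0.37, adjusted p = 0.00094), and its exons overlap those of *Art3* on the opposite strand. The membrane-bound *Cxcl16* was lower by 1.62-fold (adjusted p = 0.031), a call that was lost under 6 of 12 other settings.

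The ligands that rose were others. *Cxcl14*, an attractant made by epithelia and stroma, stood at 39.8 and 40.6 CPM in KO and at 12.2 and 8.96 CPM in WT, a 3.79-fold rise (log2 fold change 1.92, SE 0.11, adjusted p = 6.0e-09). *Cxcl15*, a neutrophil attractant best known from lung, stood at 3.72 and 3.61 CPM in KO and at 0.938 and 0.757 CPM in WT (log2 fold change 2.11, SE 0.21, adjusted p = 1.3e-06). *Cx3cl1*, a membrane-anchored chemokine that can be shed, stood at 58.1 and 61.8 CPM in KO and at 47.6 and 39.7 CPM in WT (log2 fold change 0.46, SE 0.09, adjusted p = 0.00036). In each of these the KO libraries were above both WT libraries, by little in *Cx3cl1*. *Ccl27a*, a skin chemokine, was 3.27-fold higher (log2 fold change 1.71, adjusted p = 3.8e-05), but its exons overlap *Il11ra1* on the opposite strand, and without the strand setting of the counting the reads of the 2 genes cannot be told apart. *Ccl5*, an attractant of T cells, was higher at 0.463 and 0.679 CPM against 0.290 and 0.146 CPM (adjusted p = 0.018). These levels rest on 22 and 28 counts in KO and 13 and 6 in WT. The call was lost with DESeq2, without KO replicate 2 and without WT replicate 2. *Ccl25*, *Cxcl5* and *Cxcl9* were not called, at log2 fold changes of 0.02, -0.44 and -0.34 (adjusted p = 0.93, 0.075 and 0.60).

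**Figure D2:**
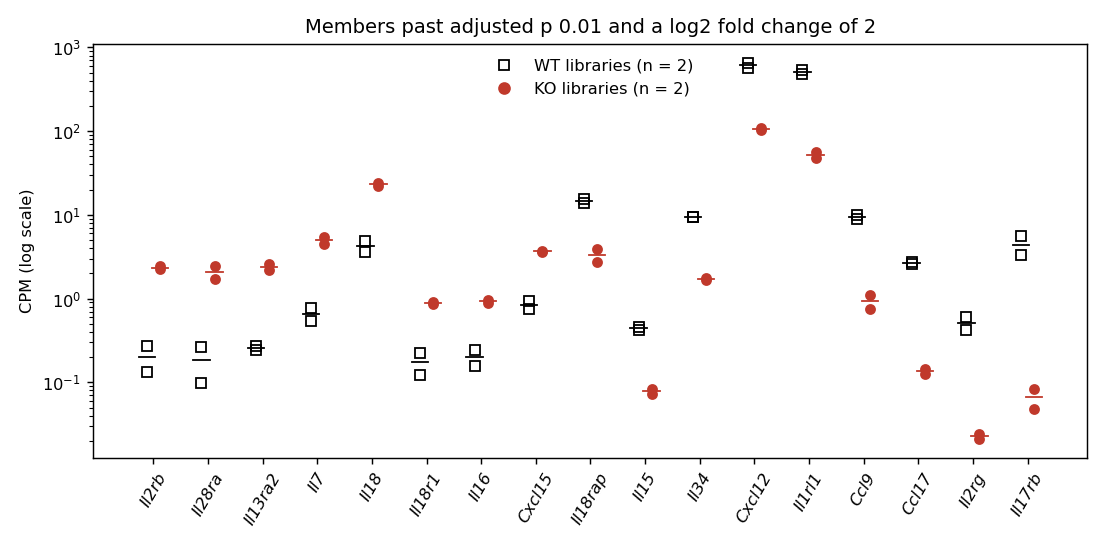
Level of the 17 genes past an adjusted p of 0.01 and the fold limit of 2 (log2), in CPM on a log scale, in the 2 KO and 2 WT libraries. Each point is 1 library and each line a mean. No gene has overlapping groups, which choosing genes by p and fold favours, beside 82.8% without overlap among all genes tested. The libraries of *Cxcl12* lie at 102 and 108 CPM in KO and at 572 and 656 in WT.

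Chemokine receptors were scarce. Of 10 only 4 passed the filter, with 1 higher, 1 lower and 2 not called, and a median log2 fold change of 0.20. That is a share called of 50%, beside 66.8% of all genes tested. *Cxcr7*, an atypical receptor that binds and removes CXCL12 without coupling to G proteins, stood at 32.1 and 33.9 CPM in KO and at 76.5 and 81.6 CPM in WT. It fell 2.40-fold (log2 fold change -1.26, SE 0.07, adjusted p = 3.9e-09), and *Cxcr4*, the signalling receptor for CXCL12, was not tested, with 5 and 4 counts in KO and 9 and 6 in WT. Thus the ligand and its scavenger were both lower in KO. *Cxcr6*, the receptor for CXCL16, stood at 3.66 and 2.52 CPM in KO and at 1.47 and 1.20 CPM in WT (log2 fold change 1.21, SE 0.23, adjusted p = 0.00044). It rose while the level of its ligand *Cxcl16* had the opposite sign. *Cxcr2*, the neutrophil receptor for CXCL5 and its relatives, had 3.77 and 6.76 CPM in the WT libraries around 5.18 and 5.6 CPM in KO and was not called (adjusted p = 0.89). Its ligands *Cxcl1*, *Cxcl2* and *Cxcl3* had at most 8, 1 and 4 counts in a library. *Cx3cr1*, the receptor for *Cx3cl1*, was not called either, at a log2 fold change of 0.36 (SE 0.35, adjusted p = 0.38). *Ccr2*, the receptor for *Ccl2* and *Ccl7*, had at most 13 counts and *Ccr10* at most 2, and *Ccr4*, *Ccr9* and *Cxcr3* were not analysed here.

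Of the 9 tested interleukin ligands 3 were higher, 3 lower and 3 not called, with a median of 0.20. That is a share called of 66.7%, beside 66.8% of all genes tested. *Il18*, an interleukin-1 family cytokine that is released after cleavage and induces interferon gamma, stood at 24.0 and 22.2 CPM in KO and at 3.59 and 4.86 CPM in WT. It rose 5.48-fold (log2 fold change 2.46, SE 0.13, adjusted p = 2.5e-09), and per length of exon it had the highest level of the interleukin ligands in KO. *Il7*, which sustains lymphocytes, stood at 5.45 and 4.51 CPM in KO and at 0.781 and 0.537 CPM in WT, a 7.49-fold rise (log2 fold change 2.91, SE 0.23, adjusted p = 1.1e-07). *Il16*, an attractant of CD4+ cells, stood at 0.884 and 0.970 CPM in KO and at 0.156 and 0.244 CPM in WT (log2 fold change 2.20, SE 0.39, adjusted p = 0.00021). The KO libraries of the 3 genes lay above those of WT without overlap. The exons of *Il7* and of *Il16* overlap other annotated genes. The receptor chain *Il7r* was not tested, with 5 and 3 counts in KO and 2 and 2 in WT.

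*Il34*, the second ligand of the macrophage receptor CSF1R, moved the other way, at 1.75 and 1.67 CPM in KO and at 9.31 and 9.52 CPM in WT, a 5.49-fold fall (log2 fold change -2.46, SE 0.15, adjusted p = 1.1e-08). *Csf1r* itself was higher in KO, with a log2 fold change of 1.74 (SE 0.20, adjusted p = 3.3e-06) and the overlap with *Hmgxb3* named above. *Il15*, which supports natural killer cells and memory T cells, had only 4 and 3 counts in KO and 19 and 19 in WT (log2 fold change -2.45, SE 0.54, adjusted p = 0.0012). *Il11*, a gp130 cytokine of fibroblasts, stood at 0.400 and 0.388 CPM in KO and at 1.07 and 0.928 CPM in WT (log2 fold change -1.34, SE 0.32, adjusted p = 0.0024). *Il1rn*, the antagonist of the interleukin-1 receptor, stood at 62.3 and 58.2 CPM in KO and at 51.8 and 57.7 CPM in WT, and was not called (adjusted p = 0.11), with the highest level per length of these ligands in WT. *Il6* and *Il33* were at or below 0.513 CPM in every library and were not called (adjusted p = 0.72 and 0.49). *Il1a* and *Il10* had 1 count each over all 4 libraries, and *Il1b*, *Il4*, *Il13* and *Il17a* were not analysed here.

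The 24 tested interleukin receptors held the largest changes, with 9 higher, 10 lower and 5 not called, and a median of 0.21. That is a share called of 79.2%, beside 66.8% of all genes tested. Genes of the interleukin-1 receptor family lie side by side on chromosome 1 and moved in different directions. *Il1rl1* (chr1:40486415-40522260, mm9) encodes ST2, the receptor for interleukin-33, with a membrane-bound and a soluble form that fibroblasts secrete. It stood at 56.4 and 47.4 CPM in KO and at 540 and 482 CPM in WT, a 9.84-fold fall (log2 fold change -3.30, SE 0.09, adjusted p = 2.8e-12). Per length of exon only *Il6st* among the interleukin receptors had a higher level in WT. *Il18r1*, the binding chain of the interleukin-18 receptor, starts at 40522397, right after the end of *Il1rl1*. It stood at 0.905 and 0.873 CPM in KO and at 0.223 and 0.122 CPM in WT and rose (log2 fold change 2.33, SE 0.41, adjusted p = 0.00020). That rise rests on 43 and 36 counts in KO and 10 and 5 in WT. The gene dropped out under a filter of 10 counts in every library. *Il18rap*, the accessory chain of that receptor, is the next gene and stood at 3.87 and 2.74 CPM in KO and at 15.4 and 13.7 CPM in WT, a 4.37-fold fall (log2 fold change -2.13, SE 0.16, adjusted p = 4.6e-08). The ligand *Il18* and one chain of its receptor were thus higher in KO and the other chain lower. *Il1r1*, the signalling receptor for interleukin-1, lies upstream and rose by less, at 95.8 and 95.2 CPM in KO and at 66.4 and 70.1 CPM in WT (log2 fold change 0.49, SE 0.06, adjusted p = 1.1e-05), while *Il1r2* and *Il1rl2* were not tested. *Il1rap* on chromosome 16, the accessory chain for both the interleukin-1 and interleukin-33 receptors, stood at 21.6 and 20.4 CPM in KO and at 49.5 and 46.3 CPM in WT (log2 fold change -1.19, SE 0.08, adjusted p = 1.5e-08).

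**Figure D3:**
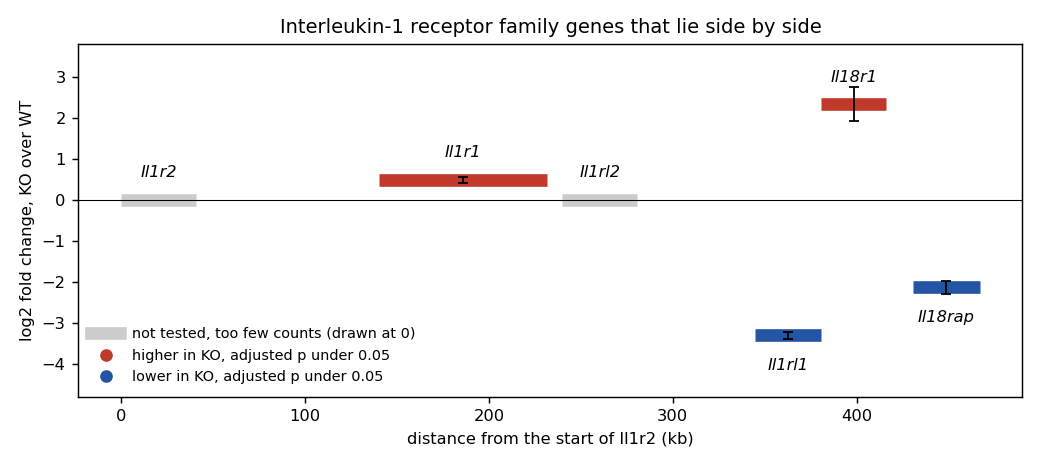
Log2 fold change, KO over WT, of the interleukin-1 receptor family genes on chromosome 1 against the distance in kb from the start of *Il1r2*. Bars span each gene, error bars are 1 SE, and grey genes were not tested and are drawn at 0. The neighbours *Il1rl1*, *Il18r1* and *Il18rap* alternate between -3.30, 2.33 and -2.13, with only 10 and 5 counts of *Il18r1* in WT.

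Of the receptors that use gp130, the shared chain itself was higher in KO. *Il6st* stood at 1699 and 1722 CPM in KO and at 768 and 941 CPM in WT, a 2.0-fold rise (log2 fold change 1.0, SE 0.08, adjusted p = 1.7e-07). It alone made up 65.3% and 66.5% of the counts of the 86 genes in KO and 30.2% and 34.1% in WT. *Il11ra1*, the binding chain for interleukin-11, stood at 19.1 and 21.1 CPM in KO and at 10.9 and 10.7 CPM in WT (log2 fold change 0.90, SE 0.10, adjusted p = 2.6e-06), with the overlap with *Ccl27a* named above. Both chains of the interleukin-11 receptor were therefore higher and its ligand *Il11* lower. *Il6ra*, the binding chain for interleukin-6, stood at 2.23 and 2.16 CPM in KO and at 1.65 and 1.46 CPM in WT and just missed the threshold (log2 fold change 0.49, SE 0.21, adjusted p = 0.051).

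The chains used by the common gamma chain cytokines and by interleukins 4 and 13 differed in direction. *Il2rb*, the beta chain for interleukins 2 and 15, stood at 2.46 and 2.23 CPM in KO and at 0.134 and 0.269 CPM in WT, an 11.7-fold rise (log2 fold change 3.55, SE 0.33, adjusted p = 5.5e-07). *Il2rg*, its partner chain, had 1 count in each KO library and 19 and 25 in WT. Scaled for library size, its WT to KO ratio of summed counts was 22.8, with an exact 95% interval of 5.94 to 194 that covers counting error only. *Il2rg* was called (adjusted p = 8.3e-05, edgeR), and its exons overlap those of another annotated gene. *Il15ra*, the binding chain for interleukin-15, stood at 2.38 and 2.18 CPM in KO and at 8.55 and 7.71 CPM in WT (log2 fold change -1.83, SE 0.16, adjusted p = 2.1e-07). *Ptprc* moved in the same direction as *Il2rg*, with a WT to KO ratio, scaled likewise, of 31.6 (exact 95% interval 8.37 to 266). The part of *Ptprc* in the fall of *Il2rg* was not tested. The receptor of interleukin-15 thus showed a fall of its ligand, its binding chain and its gamma chain beside a rise of its beta chain.

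*Il13ra1*, which pairs with the interleukin-4 receptor, stood at 225 and 191 CPM in KO and at 110 and 129 CPM in WT (log2 fold change 0.80, SE 0.09, adjusted p = 1.9e-06). *Il13ra2*, the decoy receptor that binds interleukin-13, stood at 2.21 and 2.57 CPM in KO and at 0.246 and 0.269 CPM in WT (log2 fold change 3.20, SE 0.30, adjusted p = 4.9e-07). *Il4ra*, the signalling chain of both cytokines, was lower, at 36.0 and 36.9 CPM in KO and 65.2 and 61.3 CPM in WT (log2 fold change -0.79, SE 0.07, adjusted p = 3.4e-07). *Il13ra1* and the chain with which it pairs hence changed in opposite directions.

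*Il17rb*, the receptor for interleukin-25, had the largest fold change of all 52 genes, with 4 and 2 counts in KO and 147 and 228 in WT. Its level fell by 5.97 on the log2 scale (SE 0.43, adjusted p = 3.9e-08), or 62.7-fold. *Il17ra*, the chain with which it pairs and which also serves interleukin-17, rose slightly, at 32.3 and 35.5 CPM in KO and at 24.8 and 22.8 CPM in WT (log2 fold change 0.51, SE 0.08, adjusted p = 0.00010). *Il28ra*, the binding chain for interferon lambda, stood at 1.73 and 2.45 CPM in KO and at 0.268 and 0.0976 CPM in WT (log2 fold change 3.46, SE 0.39, adjusted p = 3.3e-06), and the log2 fold change was 4.36 without WT replicate 1. *Il10rb*, its partner chain, was 1.17-fold lower (adjusted p = 0.034), a call lost under 4 of 12 other settings, and its exons overlap those of *Ifnar2*. *Il20ra*, a receptor chain for interleukins 19, 20 and 24, stood at 1.54 and 1.38 CPM in KO and at 5.34 and 4.88 CPM in WT (log2 fold change -1.80, SE 0.18, adjusted p = 1.1e-06). Its partner *Il20rb* was not called, at a log2 fold change of -0.33 (SE 0.18, adjusted p = 0.12). *Il3ra*, the binding chain for interleukin-3, was 1.74-fold lower (adjusted p = 0.0025, lost without KO replicate 1). *Il2ra*, *Il5ra* and *Il23r* stood at or below 1.49 CPM in every library and were not called (adjusted p = 0.18, 0.95 and 0.48).

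Compared per length, as CPM per kb of exon, the order of the levels changed between the genotypes. *Il6st* ranked first in both, at 329 in KO and 164 in WT. In WT *Cxcl12* and *Il1rl1* followed, at 75.1 and 74.1, and these 2 did not differ beyond the spread of the libraries, which ran from 70.0 to 80.2 and from 69.9 to 78.4. *Il13ra1* came next at 32.1 and *Cxcr7* at 23.6. In KO *Il6st* was followed by *Il13ra1* at 56.0, *Il18* at 32.9 and *Cxcl14* at 22.1, while *Cxcl12* and *Il1rl1* stood at ranks 8 and 12, at 12.9 and 7.52. *Il1r1* and *Il1rn* came at ranks 5 and 6 in KO, at 18.9 and 18.8, and their order is within the spread of the libraries. The length of *Il18* counts only the 702 bases of exon in the annotation used, which lacks the first exon of RefSeq.

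**Figure D4:**
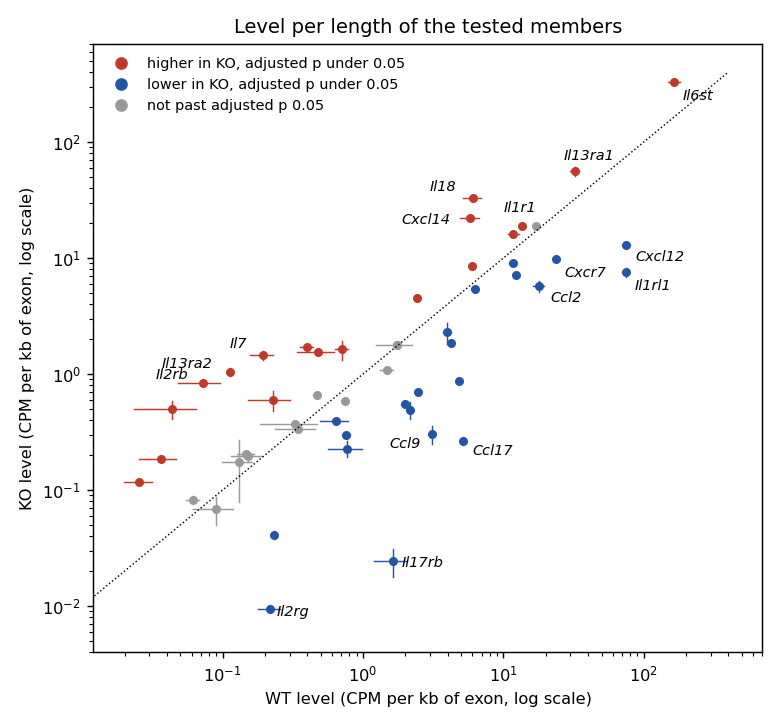
Mean level of the 52 tested genes in KO against WT, in CPM per kb of exon on log axes, with bars from the lower to the higher of the 2 libraries and a dotted line of equal levels. *Il6st* stands at 329 in KO and 164 in WT, and *Cxcl12* and *Il1rl1* lie below the line at 12.9 and 7.52 in KO.

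In the 250 bases before the annotated transcript start richest in CpG, the median was 5 over the 52 genes and 17 over the 15495 tested genes with a value, as a description without a test. The genes higher in KO had a median of 7 (0 to 27), those lower 7 (1 to 30) and those not called 3. Over all genes the medians were 17 for those higher, 19 for those lower and 15 for those not called. Genes rich and poor in CpG stood on both sides, *Il7* with 20 and *Il18* with 2 among those that rose, and *Il17rb* with 27 and *Ccl9* with 2 among those that fell. No methylation was measured in these libraries.

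**Figure D5:**
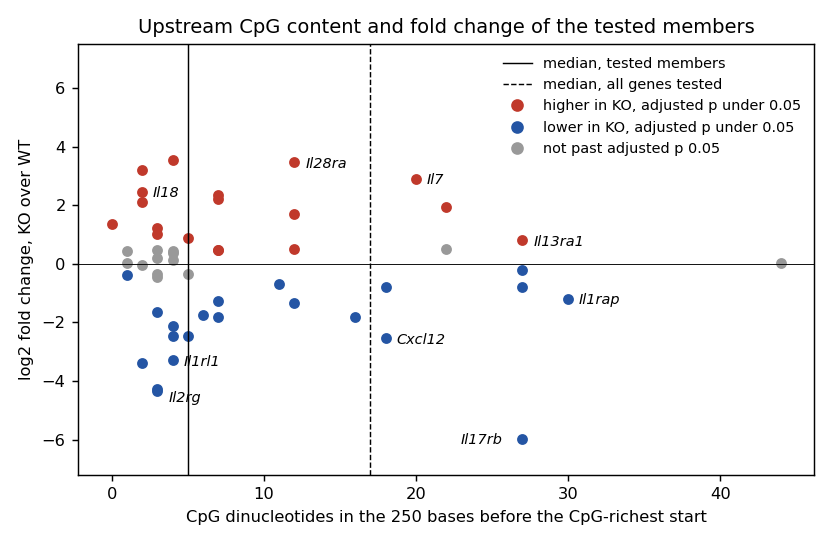
Log2 fold change, KO over WT, of the 52 tested genes against the number of CpGs in the 250 bases before their CpG-richest annotated start. Lines mark the median of these genes (5) and of all genes tested (17). Genes higher in KO are spread from 0 to 27 CpGs and those lower from 1 to 30.

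Of 27 chemokine and interleukin genes outside the naming rule 17 were tested, with 7 higher, 3 lower and 7 not called (median 0.18), a share called of 58.8% beside 66.8% of all genes tested. The platelet chemokine *Ppbp*, a ligand of CXCR2, stood at 120 and 97.3 CPM in KO and at 556 and 792 CPM in WT and fell by 2.63 on the log2 scale (SE 0.14, adjusted p = 1.7e-09). As for *Cxcl12*, both KO libraries lay far below both WT libraries. *Mif*, a cytokine that inhibits macrophage migration, also fell (-0.81, adjusted p = 1.1e-07). The macrophage growth factor *Csf1*, the other ligand of CSF1R, stood at 268 and 273 CPM against 305 and 293 CPM (-0.14, adjusted p = 0.041), a call lost under 7 of 12 other settings, and with library totals as the scaling its sign turned, at 0.01. The receptor chain *Csf2ra* (1.19), *Il17rd* (1.09) and *Ccrl2* rose, the last with 13 and 15 counts in KO and 1 and 0 in WT. Scaled for library size, the KO to WT ratio of *Ccrl2* was 27.1, with an exact 95% interval of 4.47 to 1110. The log2 fold change of *Ccrl2* was 4.46, and 6.79 and 3.63 without WT replicate 1 and 2. *Il17re* rose by 2.34 on 13 and 9 counts in KO and 3 and 1 in WT (adjusted p = 0.011), with a log2 fold change of 3.19 without WT replicate 1, and the call was lost without KO replicate 2 or WT replicate 2 and with DESeq2.

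Of 46 tested genes of NF-kB and interleukin-1 receptor signalling 15 were higher, 16 lower and 15 not called, with a median of -0.11. The share called was 67.4%, beside 66.8% of all genes tested. The genes that fell most were the adaptor kinase *Ripk2* (-2.60, SE 0.11), *Traf1* (-2.28, SE 0.25), and *Tnfaip3* (-2.07, SE 0.10) and *Nfkbiz* (-1.71, SE 0.07), which NF-kB itself induces, with adjusted p from 1.9e-10 to 3.1e-06. *Irak3*, the inhibitory member of the IRAK kinases, rose by 2.48 (SE 0.15, adjusted p = 6.6e-09), *Tnfrsf1a* by 0.88, *Tnip2* by 0.80 and the adaptor *Myd88* by 0.54. The exons of *Irak3* and *Myd88* overlap other annotated genes on the opposite strand, so their counts are uncertain. *Nfkb1*, with the highest mean CPM of the list in WT, was lower by little (-0.18, SE 0.06, adjusted p = 0.012), a call lost under 4 of 12 other settings.

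Of 36 tested genes of the JAK-STAT pathway and the gp130 family 20 were higher, 9 lower and 7 not called, with a median of 0.27. The share called was 80.6%, beside 66.8% of all genes tested, of which 34.3% were higher and 32.5% lower. Next to *Il6st* the receptor chain *Lifr*, with which it pairs for LIF, rose from 133 and 176 CPM in WT to 381 and 374 CPM in KO (log2 fold change 1.29, SE 0.10, adjusted p = 7.2e-08). The feedback inhibitors *Socs3* and *Cish* rose by 1.46 and 1.55 and the kinase *Jak1*, with the highest mean CPM of the list in KO, by 0.91. The exons of *Cish* and *Jak1* overlap other annotated genes on the opposite strand, so their counts are uncertain. *Cntfr* rose by 2.50 on 13 and 23 counts in KO and 5 and 1 in WT (adjusted p = 0.0050), a call lost without KO replicate 2 (1.93, adjusted p = 0.12), and the log2 fold change was 3.91 and 1.81 without WT replicate 1 and 2. The cytokine *Lif* fell by 4.25 (SE 0.18, adjusted p = 1.7e-10), from 35.7 and 25.5 CPM in WT to 1.73 and 1.48 CPM in KO. *Hp* and *Ptgs2*, known targets of inflammatory cytokines, both fell by 2.87 (SE 0.48 and 0.09, adjusted p = 0.00013 and 1.1e-11). The fall of *Hp* rests on only 5 and 3 counts in KO and 28 and 30 in WT. As with interleukin-11, the ligand *Lif* was lower in KO and both chains of its receptor higher.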

How the data were processed

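RNA of 2 KO and 2 WT samples was sequenced after removal of ribosomal RNA with a stranded kit. The authors aligned the reads to mm9 with TopHat2 and Bowtie and counted them per Ensembl gene with HTSeq 0.5.4p3, and their raw counts were deposited as 1 table. For the strand setting of HTSeq the sources used here give no value. Further columns hold normalized values and the ratios and p-values of the comparison that the authors made, and these were left unused.

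The raw counts were tested in edgeR 4.0.16 (R 4.3.3), after filterByExpr and TMM scaling, by the quasi-likelihood F-test for genotype, without covariates, and p-values were adjusted by Benjamini-Hochberg over the 15538 genes tested. SE is the size of the log2 fold change over the root of F. Exon lengths, positions and transcript starts are from the gencode annotation of mm9, and the printed sequences end at RefSeq transcript starts that were matched to mm9. The test was tried on counts simulated from these libraries (15218 genes), where it found 60 of 66 genes with a simulated log2 fold of 1, 64 of 67 with 2 and 66 of 66 with 3, and made 9 false calls. The simulation gave all genes the same dispersion and left 15019 unchanged. It thus differs from these data, where 66.8% of genes tested were called. Depth limits most the 13 tested genes with under 10 counts in some library.

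Named were all genes of the group with a mean of 1 CPM in a genotype or past the limits of 0.01 (adjusted p) and 2 (log2 fold change), their known partners, and in each pathway list up to 4 per direction and the one of highest CPM, apart from a result that is not reported here. *Ccl5*, *Cxcl9*, *Cxcr5*, *Il1rl2*, *Il22ra1*, *Il23r* and the marker genes *Cdh1*, *Dcn*, *Krt19* and *Ptprc* fall outside that rule and were chosen after their values were seen. The genes and lists were chosen with earlier results of these data known. Alternatives were other scalings and filters, DESeq2 1.42.0, limma-voom (limma 3.58.1), a fit with a replicate block, and fits without each library in turn.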

Additional observations from a re-analysis of the deposited data

How the results depend on the processing

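Over 12 alternatives the number of chemokine and interleukin genes higher in KO was 14 to 20 and the number lower 17 to 23, the low ends with 39 genes left by a filter of 10 counts in every library. That filter left 4 genes higher and 5 lower past the fold limit, as it removes genes nearly absent in one genotype. Without a filter on low counts 2 chemokine receptors were lower and *Cxcr5* (8 and 2 counts in WT, none in KO) and *Il22ra1* (4 and 5 counts in KO, none in WT) were called. Leaving out each library in turn gave 1 to 3 chemokine receptors higher and 1 to 2 lower, and 4 to 7 higher genes among the chemokine and interleukin genes outside the rule. *Cxcr2* changed sign, to -0.33 without WT replicate 1 (adjusted p = 0.042, edgeR) and 0.48 without WT replicate 2 (adjusted p = 0.0068), and *Csf1* with library totals, to 0.0052 (adjusted p = 0.94). That scaling moved the median over all genes from a log2 fold change of 0.02 to 0.17 and the share of higher among called genes from 51.4% to 62.6%. Of the single comparisons for genes of the group 552 kept their side of the threshold, 14 fell below it, 10 passed it newly and 1 reversed. Direction was compared only where a fit called the gene. Uncalled genes that changed sign, such as *Ccl25* with RLE size factors, therefore count among the 552. The replicate number as a block gave 18 genes higher and 21 lower, and same-numbered samples did not deviate together (correlation -0.03). That correlation rests on a single contrast per genotype. It cannot tell whether same-numbered samples were prepared together. Depth limits what can be said of the 34 untested genes.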
